A study of Mus musculus with 12 samples.

Results

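The LIF and IL6 family was described through 10 genes chosen by name: the ligands Lif, Cntf, Clcf1, Il6 and Osm, the receptor chains Osmr, Lifr and Il6st, the transcription factor Stat3, and the feedback inhibitor Socs3. Each name was matched exactly to the gene table, which listed 55487 genes, and 10 of 10 were found. The unit was FPKM, a fragment count scaled to transcript length and library depth. All 10 passed a filter on the group means, at least 1 of which had to exceed 1 FPKM, as did 16471 genes in all. Il6 and Osm passed through NMDA groups alone, so counts and medians over the 10 members are given as descriptions.

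The data were poly(A) RNA-seq of mouse retina, with 12 libraries in 6 groups of 2. The WT groups were C57BL/6J wild type retinas, the shPax6 groups were wild type retinas infected with an AAV2.7m8 vector carrying pU6-shPax6-GFP, and the JNK3KO groups were retinas of Jnk3-/- mice, a knockout of the stress kinase gene Mapk10. Eyes of each kind received 1 µL of PBS or 1 µL of 40 mM NMDA (40 nmol) into the vitreous. NMDA overstimulates glutamate receptors and injures retinal ganglion cells (RGC). The AAV went into 2-month-old mice, and no age was found for the uninfected and Jnk3-/- mice behind these RNA libraries. Each library pooled more than 3 retinas, and no source used gave the interval from injection to collection of these libraries. None of the 12 libraries carried the control vector, so AAV infection and Pax6 knockdown cannot be told apart in any shPax6 value. The comparisons asked how the family responded to NMDA in each kind of retina, and whether the response of shPax6 or JNK3KO retinas differed from that of WT.

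Ligands of this family bind receptor complexes that share the chain gp130, the product of Il6st, and the bound complex activates JAK kinases, which phosphorylate STAT3. STAT3 enters the nucleus and induces many genes, among them Socs3, whose protein binds the receptor and the kinase and damps further signaling. In injured retina the family is known for STAT3 activation in Müller glia, reactive change of these cells and support of neuron survival.

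The targeted genes were read first. Pax6, the gene targeted by the short hairpin, was at 173 and 177 FPKM after PBS in WT and at 94.6 and 92.8 after PBS in shPax6, a log2 difference of -0.90 (adjusted p = 6.04e-05). After NMDA, Pax6 was at 55.4 and 53.8 FPKM (WT) and at 67.5 and 58.7 (shPax6), so the NMDA libraries of these groups did not show lower Pax6 in shPax6. In JNK3KO, Pax6 was at 187 and 191 FPKM after PBS and at 129 and 138 after NMDA. After PBS, Mapk10 was at 42.8 and 50.7 FPKM (WT) and at 9.47 and 8.75 (JNK3KO), a log2 difference of -2.34 (adjusted p = 0.0215). It was at 8.98 and 6.00 FPKM in WT NMDA, at 20.9 and 21.3 in shPax6 PBS, at 16.2 and 8.85 in shPax6 NMDA, and at 6.65 and 13.8 in JNK3KO NMDA. Under PBS both targeted genes were thus lower in the group labelled for them, and under NMDA neither was.

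Markers of RGC were present in every library. The sum of 10 RGC markers was 540.0 and 561 FPKM in WT PBS, 299 and 319 in WT NMDA, 159 and 161 in shPax6 PBS, 46.7 and 39.3 in shPax6 NMDA, 555 and 514 in JNK3KO PBS, and 125 and 128 in JNK3KO NMDA. The RGC markers Pou4f2, Pou4f3 and Isl2 were listed at 0 in some libraries. These 3 passed the filter through PBS groups alone. Of the 10, 8 were called lower after NMDA in WT, 8 in shPax6 and 6 in JNK3KO, against 33.8%, 11% and 6.1% of all genes. In such bulk samples, fewer cells of a type and less RNA per cell cannot be told apart, here and in every value that follows.

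The WT NMDA libraries stood apart from the other 10. Their FPKM summed to 805627 and 820180.2, against 541210.3 to 576922 in the others, and their response followed transcript length. The depth, estimated from the steps between low FPKM values, was 17436792 to 22361360 fragments per library, and p-values measure the spread between libraries. Genes with a spliced length under 1 kb had a median log2 difference of 1.03 between WT NMDA and WT PBS (2948 genes), and genes over 6 kb had one of -1.54 (887 genes). The same medians were 0.18 and -0.13 in shPax6 and -0.11 and 0.26 in JNK3KO. This bears on the family because its members differ in length: the spliced length was 7297 bases for Lifr, 6578 for Il6st, 5177 for Osmr, 3718 for Stat3, 3335 for Lif, 2453 for Socs3, 2264 for Clcf1, 2094 for Osm, 1073 for Cntf and 1068 for Il6. WT results of members are therefore given also after the trend on spliced length was removed from each library, called the length correction. Sums and counts of cell type markers, above and below, were not length corrected, so their WT changes may carry this trend.

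**Figure D1:**
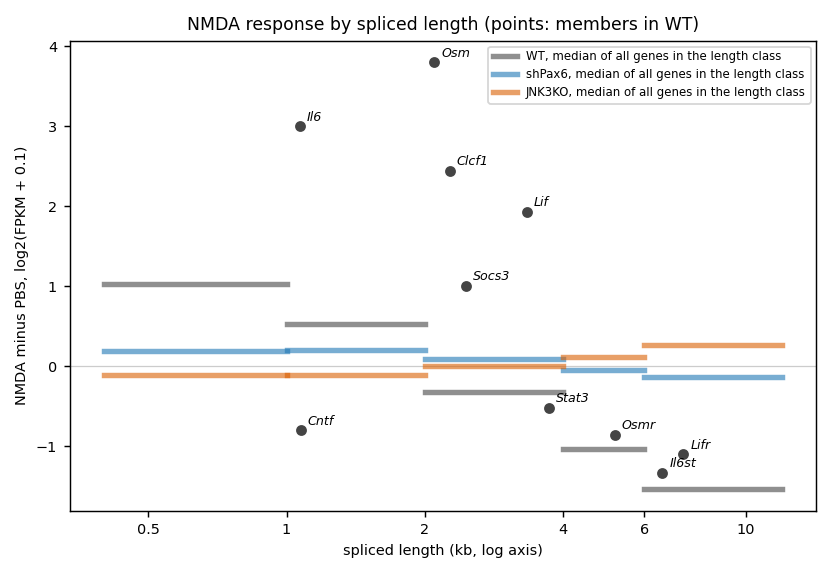
Log2 difference between NMDA and PBS (vertical axis) against spliced length in kb (horizontal log axis). Bars mark the median of all tested genes in each length class for WT, shPax6 and JNK3KO, and points mark the 10 members in WT. The WT bars step down from 1.03 to -1.54 while those of shPax6 and JNK3KO lie near 0, and Osmr, Lifr, Il6st and Stat3 lie near the WT bars of their length.

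Scaling also moved the WT response as a whole. The median log2 difference of all tested genes was -0.09 on the deposited scale and -0.66 after each library was rescaled to the same sum (TPM). Of the genes called in WT, 43.5% were higher on the deposited scale, 21.4% under TPM and 51.9% after the length correction. Of those called in shPax6, 63.4% were higher on the deposited scale, 57.4% under TPM, 48.6% under 75th-percentile scaling, 44% after quantile normalization and 47.5% after the length correction. For the difference between the WT and shPax6 responses the higher share was 36.8%, 16.3% under TPM and 53.5% after the length correction, and for WT against JNK3KO it was 45.7%, 23.2% and 53.8%. Members are given below relative to the median where this matters.

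After NMDA, 5 members were higher and 5 lower in WT. Of all genes tested in WT, 26% were called higher and 33.8% lower, called meaning an adjusted p under 0.05 in limma. The higher members were 4 ligands, Lif, Clcf1, Il6 and Osm, with Socs3, and the lower members were the 3 receptor chains, Stat3 and the ligand Cntf. The median log2 difference of the 10 members was 0.24, against -0.09 for all genes. After the length correction 5 members were called, Lif, Clcf1, Osm and Socs3 higher and Cntf lower, where 23.8% of all genes were higher and 22.1% lower.

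In shPax6 retinas, 8 members, with Osm among them, were higher after NMDA and 0 lower in limma, against 19.1% and 11% of all genes, and Il6 and Il6st were not called. At an unadjusted p under 0.05, 9 members differed between shPax6 NMDA and PBS, as did 6744 of the 16471 genes. The median of the 10 members was 1.78, against 0.10 for all genes. With the spread taken from the shPax6 libraries alone, 2 members were called, Clcf1 and Socs3. A required log2 difference above 1, which removes every smaller call by definition, left 5. The share of all genes called under these settings, or under those named for JNK3KO below, was not counted.

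In JNK3KO retinas, 2 members rose, Clcf1 and Il6st, and 1 fell, Socs3, against 4.33% and 6.1% of all genes. The median of the members was 0.33, against -0.01. Without replicate 1 of JNK3KO PBS the count fell to 1, Clcf1, which was also the 1 member left by a required log2 difference above 1.

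The responses themselves were then compared. The WT response was below that of shPax6 for 7 members and above it for 0 in limma, against 31.4% and 18.3% of all genes, with 8 members and 9211 genes at an unadjusted p under 0.05. The median of the members was -1.39, against -0.28. It was above that of JNK3KO for 4 members, Clcf1, Il6, Osm and Socs3, and below it for 4, Osmr, Lifr, Il6st and Stat3, against 23.5% and 27.9%, with a median of 0.36 against -0.03. After the length correction 3 members differed from shPax6 (Cntf, Osmr and Socs3, lower in WT), where 19.4% of all genes were higher and 16.8% lower, and 4 from JNK3KO (Clcf1, Osm and Socs3 higher, Cntf lower in WT), where 18.4% were higher and 15.8% lower. All these comparisons share the WT libraries, and the shPax6 and JNK3KO responses were not tested against each other.

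**Figure D2:**
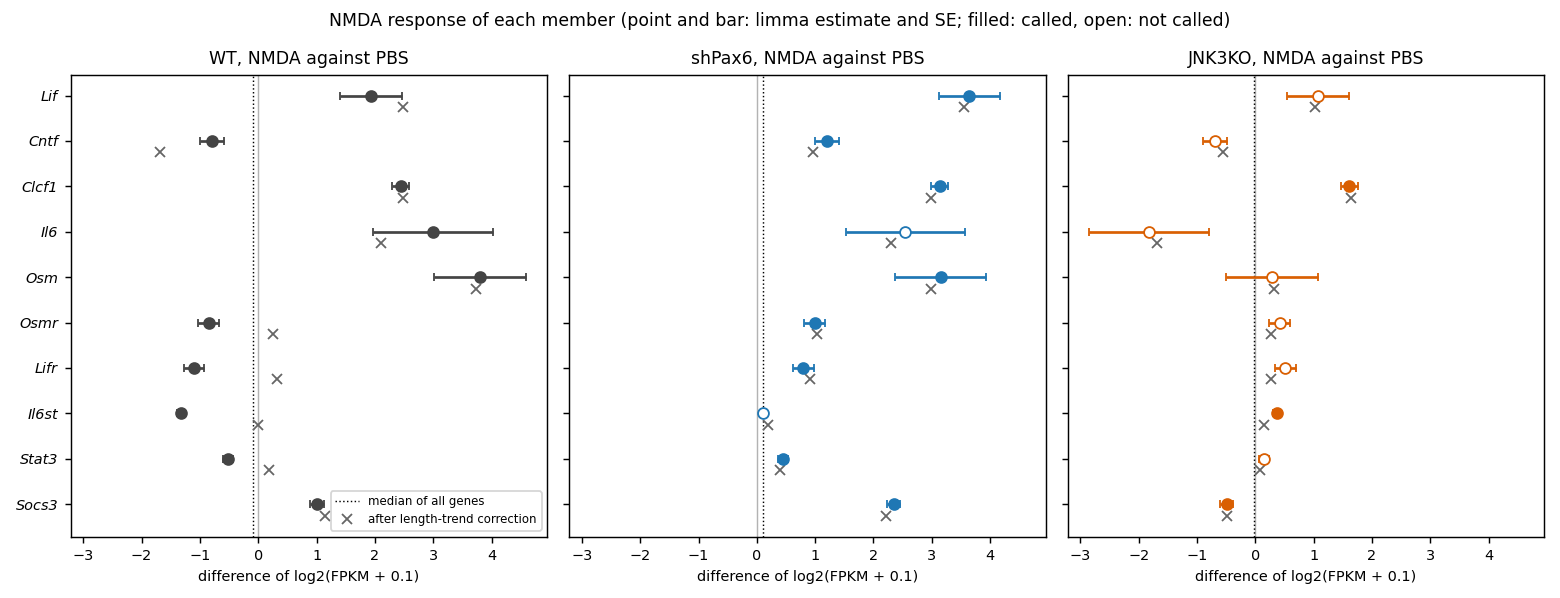
Log2 difference between NMDA and PBS of each member (horizontal axis) in WT, shPax6 and JNK3KO. Points are limma estimates with their SE, filled where called in the filtered fit, crosses are estimates after the length correction, and dotted lines mark the median of all genes. In WT the crosses of Osmr, Lifr, Il6st and Stat3 lie at 0.25, 0.32, 0.00 and 0.18, away from their points below 0, while those of Lif, Clcf1, Osm and Socs3 stay above 0.

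Among the ligands, Clcf1 had the steadiest response. Clcf1 encodes a ligand that acts through the CNTF receptor. In WT it was at 5.15 and 5.85 FPKM after PBS and at 29.1 and 31.4 after NMDA. In shPax6 it was at 1.47 and 1.66, then at 14.5 and 14.5. In JNK3KO it was at 5.04 and 4.25, then at 15.6 and 13.1. NMDA and PBS libraries did not overlap in any of the 3 kinds of retina, and the shPax6 PBS libraries were the lowest of the 12. The NMDA mean was 5.50-fold the PBS mean in WT, 9.27-fold in shPax6 and 3.09-fold in JNK3KO. The log2 differences were 2.44 (SE 0.15, adjusted p = 1e-06), 3.13 (SE 0.15, adjusted p = 1.41e-06) and 1.61 (SE 0.15, adjusted p = 0.000318). The WT value was 2.48 after the length correction, and under TPM it was 2.53 relative to the median of all genes. These calls held under every alternative run, with log2 differences of 1.88 to 2.53 in WT, 2.60 to 3.22 in shPax6 and 1.44 to 1.73 in JNK3KO.

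The Clcf1 response of WT exceeded that of JNK3KO by a log2 difference of 0.83 (adjusted p = 0.00796), which was 0.24 and not called under TPM, where it was 0.86 relative to the median of all genes, with an adjusted p from 0.00369 to 0.358. Ranges of adjusted p, here and below, leave out the threshold on the log2 difference, which ends every call smaller than 1 and has no p of its own. The Clcf1 response of WT was smaller than that of shPax6 by -0.69 (adjusted p = 0.0206), or by -0.41 relative to the median of all genes. That call was lost without replicate 2 of WT PBS (-0.60), replicate 1 of WT NMDA (-0.64) or replicate 1 of shPax6 PBS (-0.61), and also with a pseudocount of 1 (-0.33) or 0.5 (-0.50), after quantile normalization (-0.45) and after the length correction (-0.51). Its adjusted p ran from 8e-04 to 0.154 over the alternatives that give a p. Among transcripts, the coding Clcf1-201 was not called for this difference (-0.05, adjusted p = 0.948 in limma). Clcf1-203, which retains an intron, was called (-2.32, adjusted p = 0.0284).

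Lif encodes the ligand that binds LIFR with gp130. It was at 0.85 and 1.46 FPKM after PBS and at 4.98 and 4.13 after NMDA in WT, at 0.32 and 1.39 in shPax6 PBS and at 9.30 and 10.3 in shPax6 NMDA, and at 1.44 and 2.32 in JNK3KO PBS and 3.51 and 4.44 in JNK3KO NMDA. Each NMDA pair lay above its PBS pair, and the shPax6 NMDA libraries were the highest of the 12. The NMDA mean was 3.94-fold the PBS mean in WT, 11.5-fold in shPax6 and 2.11-fold in JNK3KO. Lif rose in WT (log2 difference 1.93, SE 0.53, adjusted p = 0.0111) and in shPax6 (3.65, SE 0.53, adjusted p = 0.000935), and its JNK3KO difference of 1.07 was not called (adjusted p = 0.265), nor was the difference of 0.86 between the WT and JNK3KO responses (adjusted p = 0.374). The WT call was lost without replicate 1 of WT PBS (1.57), without replicate 1 of WT NMDA (1.80) and under TPM (1.41, which was 2.06 relative to that scale's median), with an adjusted p from 0.00223 to 0.0886. The length correction gave 2.48 in WT. The shPax6 call was lost with the spread of the shPax6 libraries alone, at an adjusted p of 0.0953 in a range from 0.000182 to 0.0953. The WT and shPax6 responses differed by -1.72 (adjusted p = 0.0865), a difference that was called without replicate 2 of shPax6 PBS (-2.63), under TPM (-2.29) and with a pseudocount of 1 (-1.23), with an adjusted p from 0.00424 to 0.362. With single libraries left out this difference ran from -2.63 to -0.80, and the shPax6 response of Lif from 2.73 to 4.56.

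Il6 and Osm were the scarcest members. Il6 encodes interleukin 6, a cytokine of inflammation. It was at 0.27 and 0.29 FPKM after PBS and at 3.09 and 2.78 after NMDA in WT, was listed at 0 in both shPax6 PBS libraries and at 0.06 and 2.03 in shPax6 NMDA, and was at 0.24 and 0.45 in JNK3KO PBS and at 0 and 0.05 in JNK3KO NMDA. Il6 was thus high in both WT NMDA libraries, in 1 of the 2 shPax6 NMDA libraries and in neither JNK3KO NMDA library. The steps between low FPKM values gave estimates of 71 and 65 fragments of Il6 in WT NMDA, 1 and 35 in shPax6 NMDA, and 0 and 1 in JNK3KO NMDA. Pseudocounts shrink the log2 differences of genes this low, so they understate the change in FPKM.

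The filter admitted Il6 and Osm by their NMDA values, so calls of these 2 members in the filtered fit are not independent of the response. Their adjusted p-values are therefore given from the planned fit without a filter, over every gene with a value above 0. There the Il6 difference in WT was 3.00 (adjusted p = 0.048), 10.5-fold between means. In the filtered fit it was not called when any 1 of the 4 WT libraries was left out: the value was 2.96 without replicate 1 of WT PBS, 3.03 without its replicate 2, 2.92 without replicate 1 of WT NMDA and 3.07 without its replicate 2. It was also not called under TPM (2.60) or after the length correction (2.10), and was 1.62 with a pseudocount of 1. In shPax6 the Il6 difference was 2.55 (adjusted p = 0.14). In the filtered fit it was called after quantile normalization (2.94, adjusted p = 0.0282). Without replicate 1 of shPax6 NMDA it was 4.41 and without replicate 2 it was 0.68, each resting on 1 shPax6 NMDA library. In JNK3KO it was -1.82 (adjusted p = 0.434). The Il6 response of WT lay above that of JNK3KO by 4.82 (adjusted p = 0.0335), or by 2.01 with a pseudocount of 1. In the filtered fit this was not called without replicate 1 or 2 of WT PBS (4.78 and 4.85), replicate 1 or 2 of WT NMDA (4.74 and 4.89), replicate 2 of JNK3KO PBS (4.47) or replicate 1 of JNK3KO NMDA (4.52), or after the length correction (3.79). Between WT and shPax6 the Il6 responses differed by 0.45 (adjusted p = 0.883). In the filtered fit the difference was -1.42 without replicate 1 of shPax6 NMDA and 2.32 without its replicate 2. These values of opposite sign each rest on 1 shPax6 NMDA library, so no call is drawn from them.

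Osm encodes oncostatin M, a ligand made largely by myeloid cells that binds OSMR with gp130. It was at 0.07 and 0.06 FPKM after PBS and at 2.39 and 2.02 after NMDA in WT, at 0 and 0.11 in shPax6 PBS and at 0.68 and 2.02 in shPax6 NMDA, and at 0.08 and 0.54 in JNK3KO PBS and 0.19 and 0.49 in JNK3KO NMDA. NMDA libraries lay above PBS libraries in WT and shPax6 and overlapped with them in JNK3KO. In the fit without a filter the Osm difference was 3.80 in WT (adjusted p = 0.00435), 3.15 in shPax6 (adjusted p = 0.0252) and 0.29 in JNK3KO (adjusted p = 0.98). The WT value ran from 1.59 with a pseudocount of 1 to 4.43 after quantile normalization, and was 3.73 after the length correction. In the filtered fit the shPax6 difference was not called without replicate 1 of shPax6 PBS (2.61), without replicate 2 of shPax6 NMDA (2.43), or with the spread of the shPax6 libraries alone. The Osm response of WT lay above that of JNK3KO by 3.51 (adjusted p = 0.0412), from 1.54 with a pseudocount of 1 to 4.43 without replicate 1 of JNK3KO PBS. In the filtered fit it was not called without replicate 1 or 2 of WT PBS (3.56 and 3.47), replicate 1 or 2 of WT NMDA (3.40 and 3.63), replicate 2 of JNK3KO PBS (2.60) or replicate 1 of JNK3KO NMDA (3.00), or under TPM (3.30).

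Cntf, the ciliary neurotrophic factor gene, went the other way from the other ligands in WT. Its locus lies within Zfp91 on the same strand of chromosome 19, so fragments of the overlapping gene may be counted for it and its values are uncertain. It was at 14.5 and 12.2 FPKM after PBS and at 6.83 and 8.51 after NMDA in WT, at 11.1 and 13.0 in shPax6 PBS and at 23.6 and 32.5 in shPax6 NMDA, and at 18.0 and 13.1 in JNK3KO PBS and 10.2 and 8.88 in JNK3KO NMDA. NMDA libraries were below PBS libraries in WT and JNK3KO and above them in shPax6, with no overlap. Cntf fell in WT by 0.80 on the log2 scale (SE 0.21, adjusted p = 0.00863) and rose in shPax6 by 1.20 (SE 0.21, adjusted p = 0.00245), and the difference in JNK3KO was -0.69 (adjusted p = 0.071). The length correction gave -1.69 in WT. The WT call was lost without replicate 1 of WT PBS (-0.68), without replicate 1 of WT NMDA (-0.64) and after quantile normalization (-0.53), with an adjusted p from 0.000182 to 0.0699, and the shPax6 call was lost with the spread of the shPax6 libraries alone, in a range from 0.00214 to 0.0756. The WT and shPax6 responses differed by -2.00 (adjusted p = 0.000534), called under every alternative run with values from -2.64 to -1.64, and those of WT and JNK3KO by -0.11 (adjusted p = 0.789), which was -1.13 and called after the length correction, in a range from 0.0156 to 0.992.

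**Figure D3:**
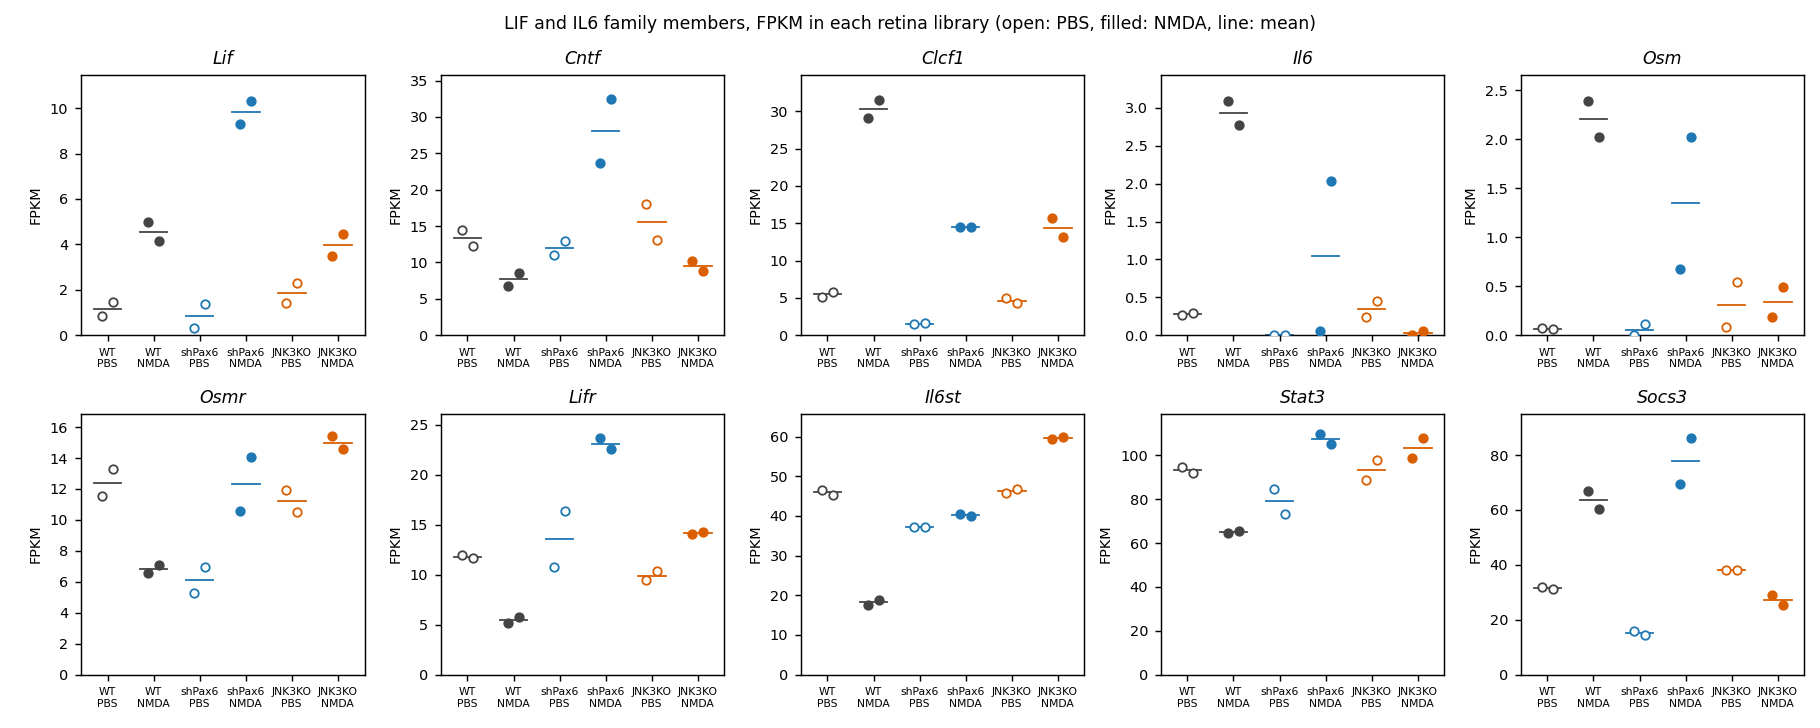
FPKM (vertical axis) of the 10 members in the 12 libraries, open points for PBS, filled points for NMDA and lines for group means. Lif, Clcf1 and Osm have higher NMDA than PBS means in all 3 kinds of retina, Il6 is near 0 in 1 of the 2 shPax6 NMDA libraries, and Il6st is lowest in the WT NMDA libraries, at 17.6 and 18.9 FPKM.

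Short stretches of promoter are shown for Lif, Il6 and Socs3 because these members had NMDA above PBS libraries in WT and held 1 of the 2 motifs searched, the STAT motif TTCNNNGAA and the AP-1 motif TGANTCA, each on both strands. The sequences came from RefSeq promoters of build GRCm38.p6, running from 250 bases before to 50 bases after the start of a gene, and 8 of the 10 members matched, all but Clcf1 and Osm. The STAT motif was in the promoter of 1 member, Socs3, and in 8.30% of all 32851 promoters. The AP-1 motif was in those of 4 members, Lif, Il6, Osmr and Cntf, and in 7.81% of all promoters. The stretches below run 5′ to 3′ with the motif in capitals, and a match describes letters only. The RefSeq start of Socs3 used here lies inside the longer GENCODE gene, so its motif lies before the former and within the latter.
Lif, chr11:4257330-4257356, plus strand, motif 228 bases before the start: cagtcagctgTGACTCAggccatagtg
Il6, chr5:30012864-30012881, plus strand, motif 249 bases before the start: cTGAGTCActtttaaaga
Socs3, chr11:117969502-117969530, minus strand, motif 154 bases before the RefSeq start: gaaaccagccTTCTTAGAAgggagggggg

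Markers of immune cells were read beside the ligands, which such cells can make. For the counts of markers below, the higher and lower shares of all genes were 26% and 33.8% in WT, 19.1% and 11% in shPax6, and 4.33% and 6.1% in JNK3KO. The summed level of 11 neutrophil markers was 229 and 253 FPKM in WT PBS, 1972 and 2015 in WT NMDA, 10.4 and 8.39 in shPax6 PBS, 71.1 and 81.7 in shPax6 NMDA, 171 and 184 in JNK3KO PBS, and 17.5 and 18.3 in JNK3KO NMDA. Of the 8 neutrophil markers tested, where Ly6g and Mmp8 passed through WT NMDA alone, 5 were called higher in WT, 6 rose in shPax6 and 5 fell in JNK3KO, while Ly6g, Retnlg, Mmp8, Mpo, Elane and Camp were listed at 0 in some libraries. The neutrophil sum and Il6 were both highest in the WT NMDA libraries. No marker list was length corrected, and the part of the length trend in the WT marker values was not tested. The sum of 7 monocyte markers, led by Lyz2, was 162 and 173 FPKM in WT PBS, 218 and 220.1 in WT NMDA, 56.8 and 54.3 in shPax6 PBS, 332 and 345 in shPax6 NMDA, 131 and 121 in JNK3KO PBS, and 87.0 and 86.5 in JNK3KO NMDA. In this list 2 rose and 3 fell in WT, 6 rose in shPax6, and 1 rose and 4 fell in JNK3KO. The sum of 6 T cell markers was 2.29 and 1.05 FPKM in shPax6 PBS and 12.2 and 6.89 in shPax6 NMDA. It was 0.92 and 1.62 in WT PBS and 1.05 and 0.90 in WT NMDA. In JNK3KO this sum was 1.27 and 1.69 after PBS and 1.17 and 1.12 after NMDA. The 4 T cell markers tested passed the filter through shPax6 NMDA alone, so no calls are given. The part of neutrophils, monocytes and T cells in the ligand values was not tested.

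The sum of 11 microglia and macrophage markers was 77.3 and 85.7 FPKM in WT PBS, 145 and 153 in WT NMDA, 221 and 198 in shPax6 PBS, 636 and 613 in shPax6 NMDA, 92.1 and 90.1 in JNK3KO PBS, and 94.4 and 91.7 in JNK3KO NMDA. It was highest where Lif was highest, in shPax6 NMDA. Of these markers 5 rose and 4 fell in WT, 7 rose in shPax6, and 1 rose and 3 fell in JNK3KO. The sum of 5 erythrocyte markers, led by Hbb-bs, was 97.3 and 107 FPKM in WT PBS and 613 and 650.0 in WT NMDA, 50.3 and 28.7 in shPax6 PBS, 126 and 120.0 in shPax6 NMDA, 126 and 123 in JNK3KO PBS, and 69.4 and 79.7 in JNK3KO NMDA, with Hbb-bt and Alas2 at 0 in some libraries. All 5 were called higher in WT, among them Alas2, which passed through WT NMDA alone, 4 in shPax6, and 1 was lower in JNK3KO. The part of microglia, macrophages and blood in these values was not tested.

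**Figure D4:**
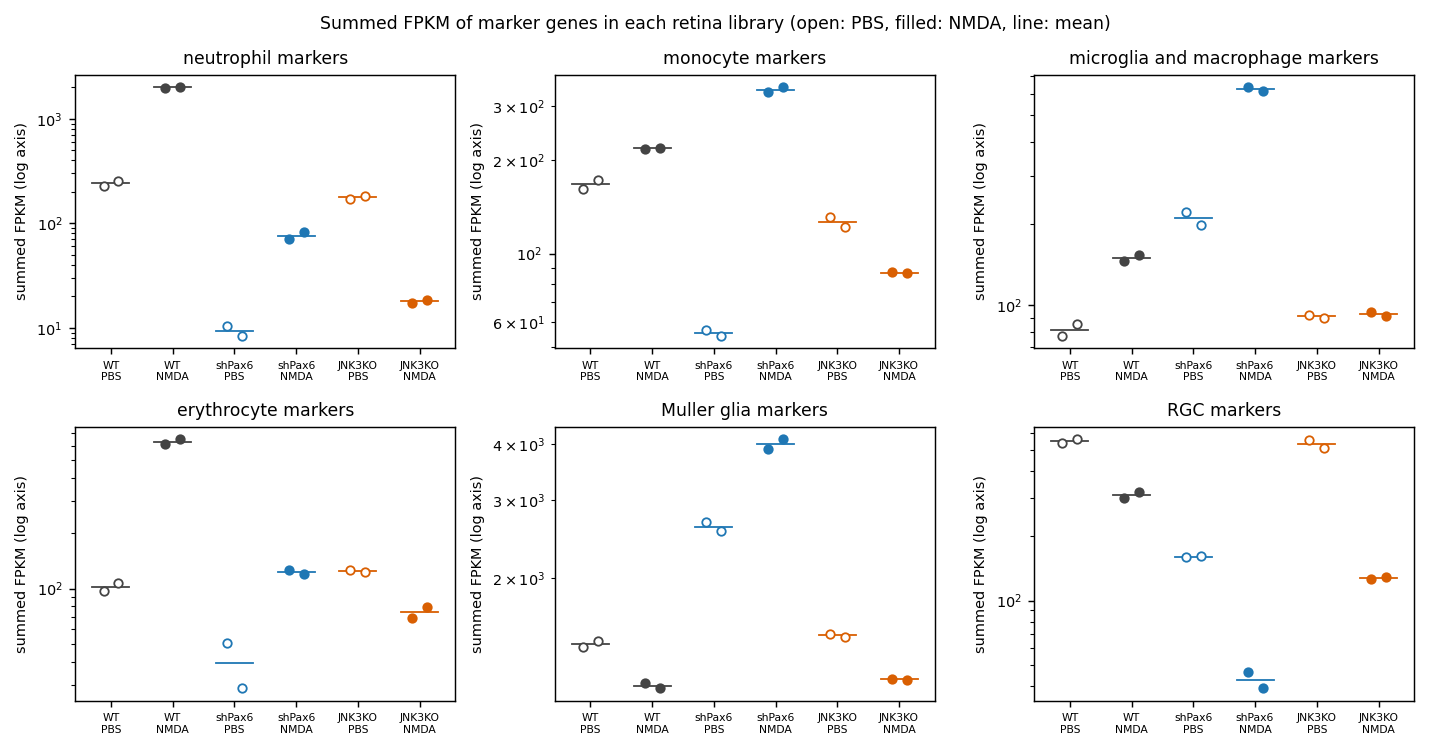
Summed FPKM (vertical log axis) of markers of 6 cell types in the 12 libraries, open points for PBS, filled points for NMDA and lines for group means. Neutrophil markers reach 1972 and 2015 FPKM in WT NMDA, microglia and macrophage markers reach 636 and 613 in shPax6 NMDA, and RGC markers are lower after NMDA in all 3 kinds of retina.

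The receptor chains fell in WT after NMDA, but this direction went with their length. Il6st encodes gp130, the signaling chain shared by the family. It was at 46.6 and 45.4 FPKM after PBS and at 17.6 and 18.9 after NMDA in WT, at 37.3 and 37.2 in shPax6 PBS and at 40.4 and 39.9 in shPax6 NMDA, and at 45.7 and 46.9 in JNK3KO PBS and 59.5 and 59.9 in JNK3KO NMDA. The WT NMDA libraries were the lowest of the 12 and the JNK3KO NMDA libraries the highest, with no overlap of NMDA and PBS in any kind of retina. Il6st fell in WT by 1.33 on the log2 scale (SE 0.06, adjusted p = 2.25e-07), and by 1.24 relative to the median of all genes, but after the length correction the value was 0.00, in a range of adjusted p from 3.27e-08 to 0.996. It rose in JNK3KO by 0.37 (SE 0.06, adjusted p = 0.0068), a call that was lost without replicate 1 of JNK3KO PBS (0.35) and after the length correction (0.16), in a range from 0.00332 to 0.143. In shPax6 the difference was 0.11 (adjusted p = 0.218) and ran from -0.02 under quantile normalization to 0.20, which was called, after the length correction.

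Lifr encodes the chain that pairs with gp130 for LIF and, with the CNTF receptor, for CNTF. It was at 11.97 and 11.63 FPKM after PBS and at 5.13 and 5.79 after NMDA in WT, at 10.7 and 16.4 in shPax6 PBS and at 23.7 and 22.6 in shPax6 NMDA, and at 9.48 and 10.3 in JNK3KO PBS and 14.1 and 14.2 in JNK3KO NMDA. NMDA libraries lay below PBS libraries in WT and above them in the other 2 kinds. Lifr fell in WT by 1.10 (SE 0.18, adjusted p = 0.000493) on the deposited scale and was at 0.32, not called, after the length correction, in a range from 3.17e-05 to 0.151. It rose in shPax6 by 0.80 (SE 0.18, adjusted p = 0.0085) and by 0.91 after the length correction, a call lost without replicate 1 of shPax6 NMDA (0.76) and with the spread of the shPax6 libraries alone, in a range from 0.00066 to 0.17. Without replicate 1 of shPax6 PBS the shPax6 value was 0.49. In JNK3KO the difference was 0.51 (adjusted p = 0.106), called with the spread of the JNK3KO libraries alone, in a range from 0.0491 to 0.409.

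Osmr encodes the chain that pairs with gp130 for oncostatin M. It was at 11.5 and 13.3 FPKM after PBS and at 6.55 and 7.07 after NMDA in WT, at 5.30 and 6.98 in shPax6 PBS and at 10.6 and 14.1 in shPax6 NMDA, and at 11.95 and 10.5 in JNK3KO PBS and 15.4 and 14.6 in JNK3KO NMDA. The WT NMDA and shPax6 PBS libraries were the lowest and overlapped, and NMDA lay above PBS in shPax6 and JNK3KO. Osmr fell in WT by 0.85 (SE 0.18, adjusted p = 0.00251) on the deposited scale and was at 0.25, not called, after the length correction, in a range from 8.51e-05 to 0.305. It rose in shPax6 by 0.99 (SE 0.18, adjusted p = 0.00298), and by 1.03 after the length correction. The shPax6 call was lost with the spread of the shPax6 libraries alone, in a range from 0.00272 to 0.128. In JNK3KO the difference was 0.42 (adjusted p = 0.193).

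The receptor responses of WT lay below those of shPax6 and JNK3KO on the deposited scale, less so after the length correction. Against shPax6 the log2 differences were -1.44 for Il6st (adjusted p = 4.19e-06), -1.90 for Lifr (adjusted p = 0.000274) and -1.85 for Osmr (adjusted p = 0.000349). After the length correction they were -0.20, -0.59 and -0.78, of which the last was called, with adjusted p-values up to 0.0831, 0.0856 and 0.0415. Without replicate 1 of shPax6 PBS, where shPax6 PBS had its lowest Lifr, the Lifr value was -1.59. Against JNK3KO they were -1.70 for Il6st (adjusted p = 9.74e-07), -1.61 for Lifr (adjusted p = 0.000538) and -1.27 for Osmr (adjusted p = 0.00241), and -0.16, 0.05 and -0.03 after the length correction, none of them called. Shares of the WT receptor responses that belong to length and to the injury were not tested apart.

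Stat3, the transcription factor that the receptors activate, was at 94.5 and 92.0 FPKM after PBS and at 64.7 and 65.6 after NMDA in WT, at 84.7 and 73.3 in shPax6 PBS and at 110.0 and 105 in shPax6 NMDA, and at 88.7 and 97.9 in JNK3KO PBS and 98.9 and 108 in JNK3KO NMDA. NMDA lay below PBS in WT and above it in shPax6 and JNK3KO. Stat3 fell in WT by 0.52 (SE 0.08, adjusted p = 0.000453) on the deposited scale, by 0.42 relative to the median of all genes, and was at 0.18, not called, after the length correction, in a range from 2.79e-06 to 0.103. It rose in shPax6 by 0.45 (SE 0.08, adjusted p = 0.00317), 1.36-fold between means, and by 0.39 after the length correction, a call lost with the spread of the shPax6 libraries alone, in a range from 0.0027 to 0.097. In JNK3KO the difference was 0.15 (adjusted p = 0.31). The WT response was below that of shPax6 by -0.96 (adjusted p = 0.000159) and below that of JNK3KO by -0.67 (adjusted p = 0.00108). After the length correction these were -0.22 and 0.09, not called, with adjusted p-values up to 0.17 and 0.584. FPKM gives the level of the mRNA, and phosphorylation of STAT3 was not measured in these libraries.

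Socs3, the feedback inhibitor, rose in WT and shPax6 and fell in JNK3KO. It was at 31.9 and 31.3 FPKM after PBS and at 66.8 and 60.3 after NMDA in WT, at 15.9 and 14.4 in shPax6 PBS and at 69.6 and 86.0 in shPax6 NMDA, and at 38.1 and 38.0 in JNK3KO PBS and 28.9 and 25.2 in JNK3KO NMDA. NMDA libraries lay above PBS libraries in WT and shPax6 and below them in JNK3KO, with no overlap. The NMDA mean was 2.01-fold the PBS mean in WT, 5.14-fold in shPax6 and 0.71-fold in JNK3KO. Socs3 rose in WT by a log2 difference of 1.01 (SE 0.11, adjusted p = 5.38e-05), which was 0.43 under TPM and 1.15 after the length correction, both called. Relative to the TPM median the value was 1.09. It rose in shPax6 by 2.35 (SE 0.11, adjusted p = 1.8e-06), called under every alternative run with values from 2.20 to 2.50.

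In JNK3KO, Socs3 fell by 0.49 (SE 0.11, adjusted p = 0.0264). That call was lost when any 1 of the 4 JNK3KO libraries was left out: the value was -0.49 without replicate 1 or replicate 2 of JNK3KO PBS, -0.59 without replicate 1 of JNK3KO NMDA and -0.39 without its replicate 2. It was also lost with the spread of the JNK3KO libraries alone and without the intensity trend, with an adjusted p from 0.0235 to 0.194. The test of the responses was steadier. The Socs3 response of WT exceeded that of JNK3KO by 1.5 (adjusted p = 5.92e-05), called under all 21 alternatives with values from 0.91 to 1.63. It was below that of shPax6 by -1.34 (adjusted p = 0.000162), called under all 21 with values from -1.87 to -1.06.

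Markers of Müller glia, the cells in which retinal STAT3 signaling is best known, were read beside these members. The sum of 10 of these markers was 1407 and 1449 FPKM in WT PBS and 1165 and 1135 in WT NMDA, 2670.5 and 2557 in shPax6 PBS and 3890.2 and 4100.5 in shPax6 NMDA, and 1504 and 1476 in JNK3KO PBS and 1190.2 and 1185 in JNK3KO NMDA. Of the 10 markers, 2 rose and 7 fell in WT, 5 rose and 3 fell in shPax6, and 3 rose and 4 fell in JNK3KO, against 26% and 33.8%, 19.1% and 11%, and 4.33% and 6.1% of all genes. In shPax6 NMDA most of the sum came from Apoe, at 1929.8 and 2083.6 FPKM, and from Clu, chosen after its values were seen, at 1289 and 1329. The part of Müller glia in the values of the members was not tested.

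After PBS, 4 members were lower in shPax6 than in WT and 0 higher in limma, against 11.2% and 5.36% of all genes. At an unadjusted p under 0.05, 5 members and 4873 genes differed. The PBS eyes were also injected, so these values do not describe untouched retina. The median of the members was -0.46, against -0.06. Clcf1 was lower by a log2 difference of -1.75 (adjusted p = 9.91e-05), Socs3 by -1.06 (adjusted p = 0.000378), Osmr by -1.01 (adjusted p = 0.00513) and Il6st by -0.30 (adjusted p = 0.01). The Osmr call was lost with the spread of the groups compared and without replicate 2 of WT PBS (-0.91), with an adjusted p from 0.00435 to 0.0914, and the Il6st call without replicate 1 of WT PBS (-0.28). Calls were gained for Lifr (0.47) and Stat3 (-0.35) without replicate 1 of shPax6 PBS, for Lif (-1.54) without its replicate 2, and for Il6 (-1.93) with the spread of the groups compared. Of these 4, Clcf1, Socs3 and Osmr rose in shPax6 after NMDA, from PBS levels below those of WT. The NMDA means were 14.5 FPKM in shPax6 and 30.3 in WT for Clcf1. They were 77.8 and 63.6 for Socs3, and 12.3 and 6.81 for Osmr. The part of the PBS levels in the responses was not tested.

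Between JNK3KO PBS and WT PBS, limma called 0 members higher and 0 lower, against 1.1% and 0.407% of all genes, with a median of 0.10 against 0. At an unadjusted p under 0.05, 1 member differed, Socs3 (log2 difference 0.27, adjusted p = 0.311), as did 2492 genes. The differences of the other members lay between -0.25 for Lifr and 1.04 for Osm.

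The transcript table listed 56 transcripts of the members, of which 27 were tested among 49940 that passed the same filter. Of these 27, Lif-201, Lif-202, Lif-203, Il6-201, Osm-201, Lifr-207 and Il6st-205 passed through NMDA groups alone and Stat3-204 through a PBS group alone, so the counts are descriptions. In WT 4 were higher and 8 lower after NMDA, against 11.7% and 23.5% of all transcripts tested. In shPax6 9 were higher and 0 lower in limma, against 4.71% and 3.63%, and in JNK3KO 1 was higher and 1 lower, against 0.537% and 0.775%. The transcript values are estimates that share reads between isoforms of a gene.

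The 2 main isoforms of Il6st did not move together in WT. The isoform Il6st-201 (spliced length 5207 bases) was at 28.5 and 27.0 FPKM after PBS and at 3.46 and 3.42 after NMDA in WT. The isoform Il6st-203 (8678 bases) was at 17.7 and 17.7 FPKM after PBS and at 14.0 and 15.5 after NMDA in WT. The shorter isoform fell by 2.98 on the log2 scale (adjusted p = 1.18e-06), while the longer differed by -0.26 (adjusted p = 0.174). Its share of Il6st was 61.2% and 59.5% in WT PBS and 19.7% and 18.1% in WT NMDA, and between 45% and 66% in the other 8 libraries. In shPax6 and JNK3KO the NMDA response of Il6st-201 was -0.10 (adjusted p = 0.684) and 0.35 (adjusted p = 0.285).

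For Stat3, the isoform Stat3-203 (4516 bases) held most of the level and was at 66.1 and 63.3 FPKM after PBS and 59.9 and 62.1 after NMDA in WT, a log2 difference of -0.08 (adjusted p = 0.316). The isoform Stat3-201 (2927 bases) was at 6.61 and 9.07 FPKM after PBS and at 0.42 and 0.57 after NMDA in WT, and fell by 3.73 (adjusted p = 9.81e-05). In shPax6, Stat3-203 rose by 0.52 (adjusted p = 0.00173). Within both genes the shorter of the 2 isoforms was thus the one that fell in WT. In Clcf1 the shorter isoform had the higher WT value, as in the trend on length over all genes. Its log2 difference was 3.48 for Clcf1-201 (1847 bases) and 0.80 for Clcf1-203 (3550 bases). The part of length in these splits between isoforms was not tested. The coding transcript Clcf1-201 rose in all 3 kinds of retina, by 3.48 in WT (adjusted p = 6.7e-05), 3.53 in shPax6 (adjusted p = 0.000419) and 1.81 in JNK3KO (adjusted p = 0.0338). Its WT and shPax6 responses differed by -0.05 (adjusted p = 0.948). Those of Clcf1-203, a transcript that retains an intron, differed by -2.32 (adjusted p = 0.0284). The coding transcript Socs3-201 rose by 1.06 in WT (adjusted p = 8.33e-05) and 2.27 in shPax6 (adjusted p = 1.61e-05) and fell by 0.53 in JNK3KO (adjusted p = 0.0441). The transcript Il6-201 passed the filter through WT NMDA alone and is given without a test: it was at 0.24 and 0 FPKM after PBS and at 3.09 and 2.72 after NMDA in WT, and was listed at 0 in all 4 shPax6 libraries, where Il6 reads went to Il6-202 and Il6-204.

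**Figure D5:**
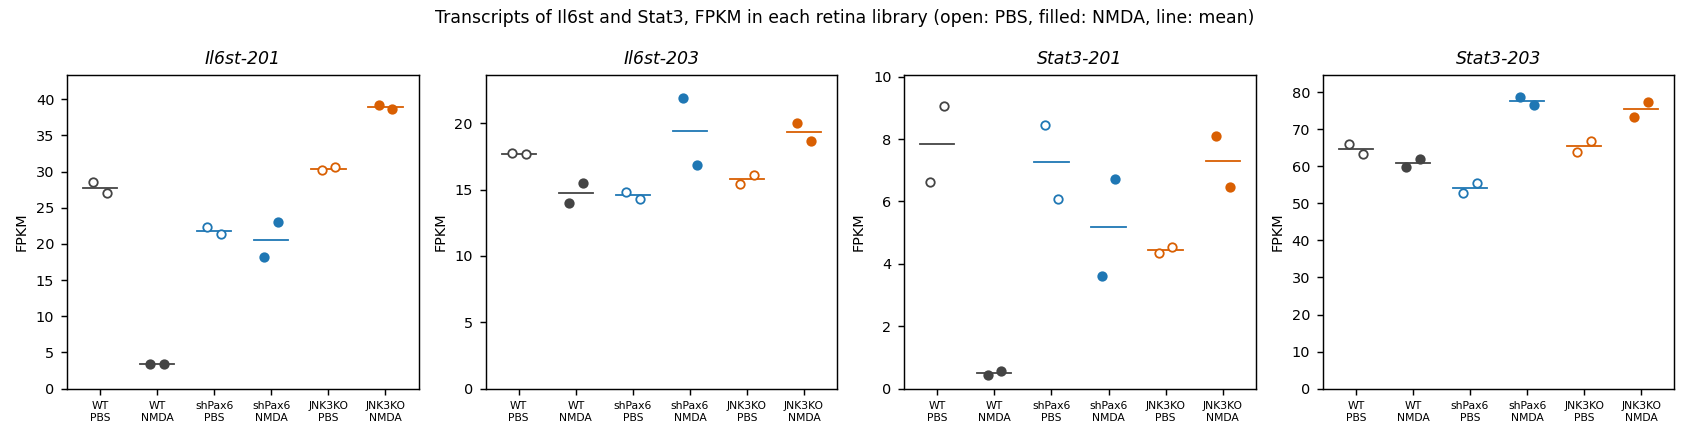
FPKM (vertical axis) of 2 isoforms of Il6st and 2 of Stat3 in the 12 libraries, open points for PBS, filled points for NMDA and lines for group means. In WT NMDA, Il6st-201 drops to 3.46 and 3.42 FPKM and Stat3-201 to 0.42 and 0.57, while Il6st-203 and Stat3-203 remain at 14.0 and 15.5 and at 59.9 and 62.1.

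Other genes of the pathway were read from 5 lists. Among the other ligands, Il11, which signals through gp130, passed the filter through WT NMDA alone, so its values are given without a test: 0.31 and 0.26 FPKM in WT PBS, 1.38 and 1.09 in WT NMDA, 0 in both shPax6 PBS libraries and 0.66 and 0.54 in shPax6 NMDA. In JNK3KO, Il11 was at 0.20 and 0.35 FPKM after PBS and at 0.37 and 0.29 after NMDA, with overlap. Ctf2 and Il31 were not tested, and Il27 and Ctf1 were not called in any of the 3 responses on the deposited scale.

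Of 3 other receptors tested, 1 rose and 2 fell in WT, 2 rose in shPax6 and 0 were called in JNK3KO by limma, against 26% and 33.8% of all genes in WT and 19.1% higher in shPax6. The WT split was 1 and 0 after quantile normalization and 1 and 1 after the length correction. The shPax6 split was 1 and 1 under 75th-percentile scaling and quantile normalization, and 2 and 1 after the length correction. Il11ra1, the IL11 receptor chain, was at 24.1 and 26.9 FPKM after PBS and at 71.4 and 76.7 after NMDA in WT, and rose by 1.54 in WT (adjusted p = 6.36e-06) and by 0.60 in shPax6 (adjusted p = 0.00624). Il6ra, the IL6 receptor chain, fell in WT by 1.35 (adjusted p = 0.0243), was at -0.13 after the length correction and was not called there or after quantile normalization (-0.91), and rose in shPax6 by 1.36 (adjusted p = 0.0438), not called under 75th-percentile scaling (1.26) or quantile normalization (0.89). Cntfr, the CNTF receptor chain, fell in WT by 0.40 (adjusted p = 0.0287), not called after quantile normalization (-0.32), and differed by -0.30 in shPax6 (adjusted p = 0.134), called there under 75th-percentile scaling (-0.42), quantile normalization (-0.45) and the length correction (-0.48), and by -0.42 in JNK3KO (adjusted p = 0.0914), with differences between responses of -0.11 (WT and shPax6, adjusted p = 0.679) and 0.01 (WT and JNK3KO, adjusted p = 0.971).

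Of 9 JAK kinases and other STATs tested, 1 rose and 3 fell in WT, 6 rose in shPax6 and limma called 0 in JNK3KO, against 26% and 33.8% of all genes in WT and 19.1% higher in shPax6. The WT split turned with the scale: 0 rose and 7 fell under TPM, and 4 rose and 0 fell after the length correction, both run after the length trend was seen. Jak1, a kinase bound to gp130, was at 38.3 and 39.3 FPKM after PBS and at 17.9 and 17.7 after NMDA in WT, and fell by 1.12 (adjusted p = 8.97e-07), but was at -0.11 after the length correction. Jak2 fell in WT by 0.75 (adjusted p = 0.000962), was at 0.19 after the length correction, and rose in shPax6 by 0.55 (adjusted p = 0.0138). Jak3 rose in shPax6 by 0.96 (adjusted p = 0.00149) and Stat2 by 0.82 (adjusted p = 0.000466), where the WT responses differed by -0.70 (adjusted p = 0.024) and -0.76 (adjusted p = 0.00261) but by 0.10 and -0.17, not called, after the length correction. Stat5b fell in WT by 1.33 (adjusted p = 0.000705) and was at -0.29, not called, after the length correction.

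Of 15 feedback inhibitors and phosphatases, 3 rose and 8 fell in WT, 4 rose in shPax6, and 1 rose and 1 fell in JNK3KO, against 26% and 33.8% of all genes in WT, 19.1% higher in shPax6, and 4.33% and 6.1% in JNK3KO. The WT split was 5 and 3 after the length correction and 2 and 10 under TPM. Socs1, a relative of Socs3, was at 0.84 and 0.71 FPKM after PBS and at 3.88 and 3.92 after NMDA in WT, and rose by 2.20 in WT (adjusted p = 0.00023) and by 1.38 in shPax6 (adjusted p = 0.00954), in shPax6 not after quantile normalization (0.92). Cish, a further inhibitor of cytokine signaling, rose in WT by 1.24 (adjusted p = 0.00126) and differed in shPax6 by 0.21 (adjusted p = 0.54), and the responses differed by 1.03 (adjusted p = 0.0265), or by 0.51 without a call under TPM. Ptpn2, a phosphatase of JAK and STAT proteins, rose in shPax6 by 0.78 (adjusted p = 0.000107) and in WT by 0.53 (adjusted p = 0.000282), but was at -0.04 in WT under TPM. Socs7 fell in WT by 1.34 (adjusted p = 1.05e-05) and was at -0.07 after the length correction.

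Of 27 STAT3 targets and injury response genes, 18 rose and 8 fell in WT, 23 rose and 1 fell in shPax6, and 6 rose and 8 fell in JNK3KO. For all genes these shares were 26% and 33.8% in WT, 19.1% and 11% in shPax6, and 4.33% and 6.1% in JNK3KO. The median of the list was 0.70 in WT, 1.45 in shPax6 and -0.15 in JNK3KO. In WT 10 rose and 10 fell under TPM, and 16 rose and 7 fell after the length correction. Many of these genes also answer to other signals, and their dependence on STAT3 was not tested. Ccl2, a chemokine that draws monocytes, was at 4.61 and 4.39 FPKM after PBS and at 138 and 126 after NMDA in WT, at 0.91 and 2.20 in shPax6 PBS and at 31.4 and 37.6 in shPax6 NMDA, and at 5.23 and 5.38 in JNK3KO PBS and 7.03 and 8.41 in JNK3KO NMDA. NMDA lay above PBS in all 3, far above it in WT and shPax6. Ccl2 rose by 4.84 in WT (adjusted p = 1.48e-06) and 4.50 in shPax6 (adjusted p = 1.16e-05), with 0.53 in JNK3KO (adjusted p = 0.347), and the WT response exceeded that of JNK3KO by 4.32 (adjusted p = 4.16e-05).

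Some genes of this list rose in all 3 kinds of retina. Myc, a growth regulator, rose by 2.84 in WT (adjusted p = 2.38e-06), 2.97 in shPax6 (adjusted p = 9.41e-06) and 2.19 in JNK3KO (adjusted p = 0.000305). Ccnd1, the cell cycle gene for cyclin D1, rose by 1.60, 1.61 and 2.40 (adjusted p = 5.18e-05, 0.000209 and 0.000107). Others rose in WT and shPax6 with a WT response above that of JNK3KO: Bcl3, a cofactor of NF-kB, rose by 1.91 in WT (adjusted p = 9.45e-06) and 2.31 in shPax6 (adjusted p = 1.44e-05), with -0.05 in JNK3KO (adjusted p = 0.905) and a difference of 1.96 between WT and JNK3KO (adjusted p = 0.000109). Cebpd, a transcription factor of the acute phase, rose by 1.44 in WT (adjusted p = 3.73e-06) and 0.94 in shPax6 (adjusted p = 0.00024), with a difference of 1.78 between WT and JNK3KO (adjusted p = 1.53e-05). Edn2, an endothelin that injured photoreceptors release, rose by 1.58 in WT (adjusted p = 8.11e-08) and 0.94 in shPax6 (adjusted p = 7.82e-06), with a difference of 1.68 between WT and JNK3KO (adjusted p = 9.28e-07).

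The glial genes of the list did not share 1 order. Vim, a filament gene of reactive glia chosen after its values were seen, rose by 1.72 in WT (adjusted p = 1.47e-07), 0.38 after quantile normalization, by 1.45 in shPax6 (adjusted p = 2.24e-06) and by 0.87 in JNK3KO (adjusted p = 0.000189). Gfap, the intermediate filament of reactive glia, was at 78.0 and 81.6 FPKM after PBS and at 55.7 and 55.3 after NMDA in WT, at 50.4 and 42.9 in shPax6 PBS and at 103 and 97.8 in shPax6 NMDA, and at 83.2 and 80.3 in JNK3KO PBS and 69.5 and 68.2 in JNK3KO NMDA. It fell in WT by 0.52 (adjusted p = 0.000284) and rose in shPax6 by 1.11 (adjusted p = 1.17e-05), and the responses differed by -1.63 (adjusted p = 6.46e-06). Lcn2, an iron-binding protein of reactive glia and neutrophils, was at 774 and 805 FPKM after PBS and at 934 and 873 after NMDA in WT, at 507 and 500.3 in shPax6 PBS and at 2030.5 and 1997 in shPax6 NMDA, and at 586 and 563 in JNK3KO PBS and 130 and 137 in JNK3KO NMDA. Lcn2 rose in shPax6 by 2.00 (adjusted p = 3.87e-08) and fell in JNK3KO by 2.11 (adjusted p = 8.8e-08), and its WT difference of 0.19 (adjusted p = 0.00604) turned to -0.38 under TPM, -0.83 after the length correction and -1.14 after quantile normalization. Fgf2, a growth factor of injured retina, fell in WT by 0.89 (adjusted p = 2.31e-05) but was at 0.30 after the length correction, and it rose in shPax6 by 0.31 (adjusted p = 0.0266) and in JNK3KO by 0.41 (adjusted p = 0.0195), not called in shPax6 under 3 of the scales or in JNK3KO after the length correction. Lcn2 had the direction of Socs3 in shPax6 and in JNK3KO.

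By position (GENCODE genes, build GRCm38), Osm (chromosome 11, 4236420 to 4241026) and Lif (chromosome 11, 4257557 to 4272514) are neighbours on the plus strand, and both had NMDA libraries above PBS libraries in WT and shPax6. Stat3 (100885098 to 100939540) and Socs3 (117966079 to 117970047) lie on the minus strand of the same chromosome. Osmr (6813577 to 6874969, minus strand) and Lifr (7090614 to 7197489, plus strand) lie near each other on chromosome 15. Cntf (12763660 to 12765632, minus strand) and Clcf1 (4214238 to 4223490, plus strand) are on chromosome 19, Il6 (30013114 to 30019981, plus strand) on chromosome 5 and Il6st (112464070 to 112510086, plus strand) on chromosome 13.

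Genes with the most similar profile over the 12 libraries were named by the root mean square difference of log2 values centred on each gene's mean. Directions that they share with a member follow from this choice and are no separate result. For Socs3 these were Fabp5 (0.21), Litaf (0.23) and Tgm2 (0.25), for Lif Hmox1 (0.41), Tcim (0.45) and Spp1 (0.46), for Osmr Dock1 (0.16), Gclm (0.17) and Gm43488 (0.18), and for Stat3 Ctdsp2 (0.07), Ppt1 (0.08) and Rdh10 (0.08). Fabp5, a fatty acid binding protein, was at 33.5 and 38.8 FPKM after PBS and 83.7 and 83.7 after NMDA in WT, at 19.7 and 20.2 in shPax6 PBS and 72.9 and 71.2 in shPax6 NMDA, and at 45.0 and 41.7 in JNK3KO PBS and 36.7 and 34.7 in JNK3KO NMDA, with its NMDA libraries above PBS in WT and shPax6 and below in JNK3KO. Hmox1, the heme oxygenase of oxidative stress, was highest in shPax6 NMDA at 115 and 114 FPKM, like Lif.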

How the data were processed

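The authors aligned paired reads to GRCm38.p6 with STAR 2.7.1a and estimated FPKM per gene and per transcript with RSEM 1.3.3, and the deposited tables were used as they were. Log2(FPKM + 0.1) was fitted in limma 3.58.1 (R 4.3.3, with the data.table package at 1.17.8) with 6 group means and an intensity trend, and p-values were adjusted over all genes tested by the method of Benjamini and Hochberg, with 0.05 as threshold. The scripts were tested on simulated data. A bar on the share of planted changes recovered was set before that test, missed, and then dropped. The bars used since, on bias, null p-values and false calls, were set after simulated results were seen, and the share of false calls lay above 0.05. Spliced lengths and positions came from GENCODE genes of GRCm38, which matched 99.53% of genes, and promoters from RefSeq. Plots were made in matplotlib 3.10.9 under Python 3.11.15.

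Alternatives changed the pseudocount, filter, scaling, length trend, source of the spread, intensity trend and a log2 threshold, summed transcripts, added a replicate block, or left out each library in turn. The members, 5 pathway lists and 16 marker lists were chosen with earlier results of these data known. Genes named are the members, Pax6, Mapk10, up to 4 genes per pathway list with the largest mean response, Il6ra, Cntfr, Jak1, Jak2, Gfap, Lcn2, Bcl3, Cebpd, Fgf2, Edn2, for 3 marker lists the marker most abundant over the 12 libraries together, markers at 0, and 3 genes of similar profile for each of Lif, Osmr, Stat3 and Socs3.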

Additional observations from a re-analysis of the deposited data

Results flagged for a closer look

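Each result here was flagged because the response to NMDA differed between WT and another kind of retina in a tested comparison. Values are differences of log2 responses.

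Against JNK3KO, the WT response was higher by 0.83 for Clcf1, 4.82 for Il6, 3.51 for Osm and 1.5 for Socs3. Il6 and Osm passed the filter through NMDA groups alone, and their calls were lost when any 1 of 6 of the 8 libraries was left out. Under TPM the Clcf1 value was 0.24, not called. The WT response was lower for Osmr (-1.27), Lifr (-1.61), Il6st (-1.70) and Stat3 (-0.67), which were at -0.03, 0.05, -0.16 and 0.09 after the length correction, none of them called.

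Against shPax6, the WT response was lower for Cntf (-2.00), Clcf1 (-0.69), Osmr (-1.85), Lifr (-1.90), Il6st (-1.44), Stat3 (-0.96) and Socs3 (-1.34). With the length correction, Clcf1 (-0.51), Lifr (-0.59), Il6st (-0.20) and Stat3 (-0.22) were not called. For the coding transcript Clcf1-201 the difference was -0.05, not called. For Clcf1-203, which retains an intron, it was -2.32 and called.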

How the results depend on the processing

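Of the gene results under the alternatives, 1164 stayed on their side of the threshold, called or not, and 27 of these were uncalled values that changed sign. A further 73 lost a call, 13 gained one and 6 reversed, 5 of which were no longer called. After the length correction, the WT responses of Osmr, Lifr and Stat3 turned to 0.25, 0.32 and 0.18, and the differences between the WT and JNK3KO responses of Lifr and Stat3 to 0.05 and 0.09. The Il6 difference between WT and shPax6 turned to -1.42 without replicate 1 of shPax6 NMDA and was 2.32 without its replicate 2. The cause was not tested.

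The number of members called in WT went from 10 to 5 after the length correction. In shPax6 it went from 8 to 2 with the spread of the groups compared and to 5 with a log2 difference above 1. In JNK3KO it went from 3 to 1 with a log2 difference above 1, and to between 1 and 2 when a library was left out. Members with a different response went from 7 to 3 (WT and shPax6) and from 8 to 4 (WT and JNK3KO) after the length correction. Il6 and Osm dropped out when the mean over the 12 libraries was filtered. Calls over all genes were counted for the scalings and the length correction. Whether they dropped as far under the other settings was not counted.

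With a replicate block the counts were 10 in WT, 8 in shPax6, 3 in JNK3KO, 7 and 8 for the differences between responses, and 4 and 0 under PBS, and for transcripts 13 in place of 12. Replicates of the same number share only a number, and their deviations correlated at -0.013 in WT, 0.022 in shPax6 and -0.097 in JNK3KO.

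Scalings of the pathway lists were added after seeing the data. With 2 libraries per group, no control vector and no stated interval after injection, effects of infection, age or time cannot be told apart from those of the groups, and values under 1 FPKM rest on few fragments.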
